A study of Mus musculus with 12 samples.

Results

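Coagulation, fibrinolysis and kinin genes are described here in mouse liver: 38 genes, chosen by symbol from a fixed list, among 55487 rows of expression values. Liver RNA was sequenced from 6 control and 6 severe acute pancreatitis (SAP) samples. All mice were Balb/c of wild type genotype at 6 weeks of age, the SAP group having been given caerulein, a cholecystokinin analogue that overstimulates the exocrine pancreas, while the label for the other group reads only control. The comparison asks how liver transcripts of these proteins differ between the 2 groups. The labels say neither how caerulein was dosed and timed nor whether each sample is a single animal, and the design text speaks of a pair of mouse models that the sample labels do not separate. The p-values therefore measure the spread between these samples.

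The liver makes most of the proteins that circulate as clotting factors. Tissue factor with factor VII starts a chain of serine proteases that ends in thrombin, which turns fibrinogen into fibrin; antithrombin, heparin cofactor II and the protein C pathway hold the chain back. Plasmin, made from plasminogen, dissolves fibrin. In the contact system plasma kallikrein cuts bradykinin out of kininogen. Several of the proteases carry glutamates that are carboxylated in a vitamin K-dependent step.

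Levels are given as TPM, a share of all transcripts in the library, which is scaled for gene length and can be compared between genes. No depth can be read from TPM. Differences are SAP minus control on the log2(TPM + 1) scale, and a gene is called higher or lower where the limma test over all genes gave a Benjamini-Hochberg adjusted p under 0.05. In all, 32 of the 38 genes reached 1 TPM in at least 6 of the 12 libraries and were tested, and 6 (Plat, Plau, Plaur, F13a1, Serpina5 and Mug2) did not. Of the 32 tested, 10 were higher, 13 lower and 9 not past the threshold. Over all 11344 tested genes 19.5% were called higher and 25.0% lower. Each count by role or list below is to be read beside these shares. The median log2 difference was -0.02 for the 32 and -0.03 for all tested genes. With quantile normalization, 13 of the 32 were higher and 11 lower, and over all tested genes 2950 were higher and 2590 lower, against 2211 and 2832 without it. With TMM-like scaling 11 of the 32 were higher and 13 lower, and over all tested genes 2785 and 2735, so the excess of lower genes over all tested genes did not hold under either scaling. The 2 groups did not overlap for 20 of the 32 genes, against 25.6% of all tested genes. A2m entered the test only through the SAP libraries, so its place among the 10 was fixed by the filter. Without it, 9 of 31 were higher and 13 lower.

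**Figure D1:**
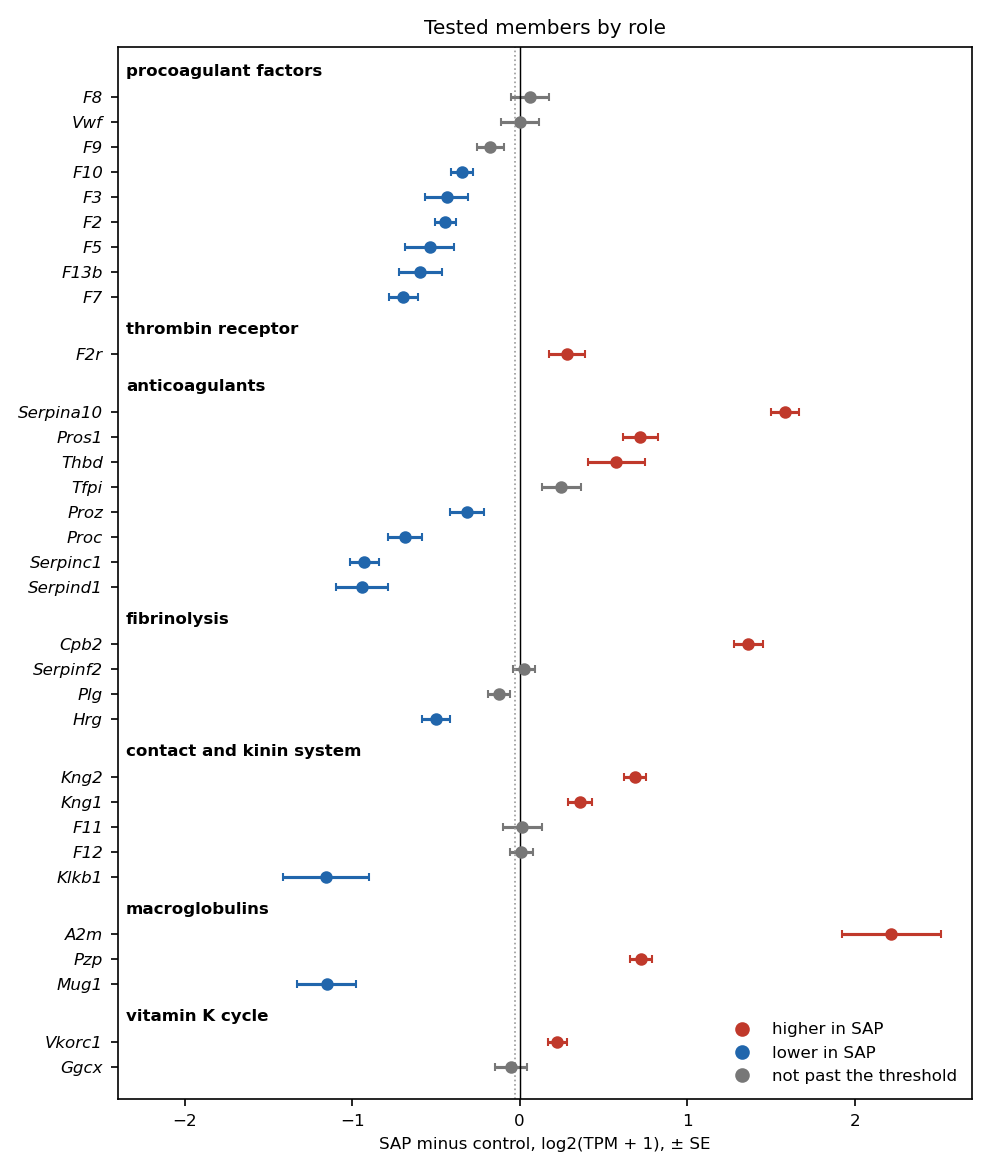
Difference between SAP and control for the 32 tested genes, grouped by role, as points with standard errors from limma (n = 6 libraries a group); the dotted line marks the median of all tested genes. None of the 9 tested procoagulant factors was called higher, whereas the anticoagulant, fibrinolytic and contact groups each hold genes called in either direction.

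A few facts of the libraries bear on all values. The 3 serum amyloid A genes Saa1, Saa2 and Saa3 took 0.0117 to 0.0774% of TPM in controls and 7.95 to 14.1% in SAP, the highest share being in SAP 14. SAP 14 was also the lowest SAP library for 23 of the 32 tested genes, and for all 13 called lower. Xist, a nuclear RNA, split the libraries: control 5 and SAP 11, 13, 14 and 15 held 4.59 to 17.1 TPM and the other 7 held 49.1 to 60.7 TPM. The low-Xist libraries hold 1 control, so no value within them is given. Within the 7 high-Xist libraries (5 control, 2 SAP) 20 of the 23 calls held. Without SAP 14 and control 5 all 23 held. Of 5 hepatocyte markers with a row, 3 were lower (Alb, Ttr and Cyp2e1), 1 higher (Apoa1) and 1 not past the threshold (Apob). The 5 summed to 78619 to 88737 TPM in controls and 36131 to 50607 TPM in SAP, a sum of which Alb was the largest term, at a mean of 65029 TPM in controls and 27673 TPM in SAP. The lowest value of any of the 5 was 401.7 TPM, of Apob in SAP 14. In bulk liver, fewer cells of a type and less RNA per cell cannot be told apart.

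Of the 10 procoagulant factors, 9 were tested and F13a1, at no more than 0.59 TPM, was not; F13a1 was called higher in a fit without the filter (limma adjusted p = 0.00504). Of the 9 tested factors 6 were lower, 0 higher and 3 not past it, with a median log2 difference of -0.44. The shares over all tested genes were 25.0% lower and 19.5% higher. Prothrombin (F2), the precursor of thrombin and the most abundant of them, had a lowest, median and highest value of 1180, 1242 and 1299 TPM in controls and of 814, 908 and 997 TPM in SAP. Every SAP library lay under every control library. The mean was 0.737 times the control mean, a log2 difference of -0.44 ± 0.06 (SE; limma adjusted p = 6.52e-05).

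The other 4 factors called lower above 10 TPM had separate groups. F7, which pairs with tissue factor, ranged from 83.1 to 92.6 TPM in controls and from 41.3 to 60.8 TPM in SAP, a log2 difference of -0.70 ± 0.09 (SE; limma adjusted p = 2.64e-05). F5, the cofactor that speeds thrombin formation, went from 65.0 ± 3.14 to 45.7 ± 11.0 TPM (SD, n = 6). F13b, the carrier subunit of the fibrin cross-linking factor, went from 99.0 ± 5.86 to 66.6 ± 13.9 TPM (SD, n = 6). Both were called lower (limma adjusted p = 0.00883 and 0.00206). The F5 groups only just parted, at 59.3 TPM in the lowest control and 59.0 TPM in the highest SAP library, and its call was lost with the Xist split as a term (limma adjusted p = 0.0559). F10, the protease that cleaves prothrombin, went from 386 ± 14.5 to 305 ± 27.8 TPM (SD, n = 6), a log2 difference of -0.34 that became -0.01 (limma adjusted p = 0.907) with quantile normalization.

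The remaining factors were at low level or showed little difference. F9, the protease missing in haemophilia B, ranged from 70.2 to 77.1 TPM in controls and from 52.2 to 74.0 TPM in SAP. Its log2 difference of -0.18 was not past the threshold (limma adjusted p = 0.0883), although it was called lower without SAP 13 (limma adjusted p = 0.0469), and it turned to 0.07 with quantile normalization. F3, tissue factor itself, was at 1.68 to 3.27 TPM in controls and 1.01 to 1.85 TPM in SAP, overlapping groups with a call of lower. That call was lost within the high-Xist libraries (limma adjusted p = 0.212) and with the Xist split as a term (limma adjusted p = 0.0554).

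F8 and Vwf, which endothelial cells of the liver or of larger vessels express, were not past the threshold. F8 averaged 1.53 TPM in controls and 1.67 TPM in SAP, and Vwf, its carrier in plasma, 3.17 and 3.18 TPM. Both signs depended on single libraries. Of 10 sinusoidal endothelium markers 3 were higher, 1 lower and 6 not past the threshold, with sums of 140 to 194 TPM in controls and 151 to 214 TPM in SAP. The receptor for thrombin on cells, F2r, ranged from 2.7 to 3.20 TPM in controls (median 3.11) and from 2.85 to 4.81 TPM in SAP (median 4.00). It was called higher at limma adjusted p = 0.0470, with overlapping groups, and the call was lost when any control library or any of SAP 10, SAP 11 and SAP 12 was left out (limma adjusted p between 0.0618 and 0.0998), and without the filter (0.0952).

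**Figure D2:**
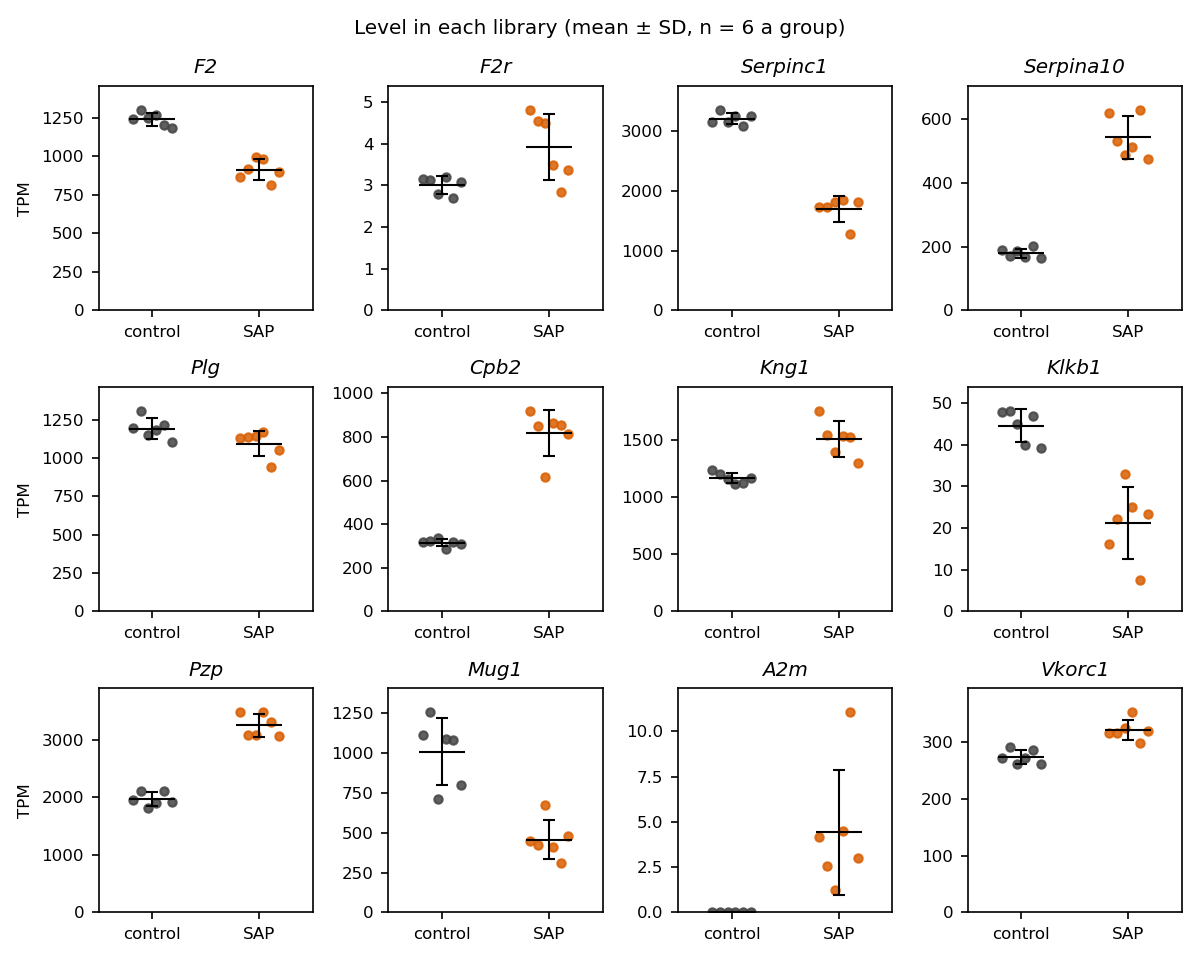
TPM of 12 genes in each library (points), with mean and SD of 6 libraries a group; every axis starts at 0. F2, Serpinc1, Klkb1 and Mug1 sit lower and Serpina10, Cpb2, Kng1, Pzp, A2m and Vkorc1 higher in SAP with no overlap, while Plg and F2r overlap.

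Anticoagulant genes went in both directions. Of 8 tested, 3 were higher, 4 lower and 1 not past the threshold. Serpinc1 and Serpind1, which encode heparin-dependent thrombin inhibitors, had the largest decreases among these 8. Antithrombin (Serpinc1), the most abundant of the anticoagulant genes, had a lowest, median and highest value of 3088, 3198 and 3346 TPM in controls and of 1270, 1767 and 1840 TPM in SAP. The groups were far apart, and SAP 14 lay well below the other SAP libraries, which began at 1720 TPM. The log2 difference was -0.93 ± 0.09 (SE; limma adjusted p = 2.57e-06). Heparin cofactor II (Serpind1) went from 420 to 472 TPM in controls to 144 to 299.7 TPM in SAP, a log2 difference of -0.94 ± 0.16 (SE; limma adjusted p = 2.69e-04).

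The protein C pathway was divided. Proc, the zymogen of activated protein C, went from 427 ± 19.3 to 268 ± 43.5 TPM (SD, n = 6) with separate groups, a log2 difference of -0.69 ± 0.10 (SE; limma adjusted p = 1.12e-04). Its cofactor protein S (Pros1) went the other way, from 11.0 to 14.8 TPM in controls to 17.2 to 25.6 TPM in SAP, a log2 difference of 0.72 ± 0.10 (SE; limma adjusted p = 8.68e-05). Thrombomodulin (Thbd), the endothelial receptor on which thrombin activates protein C, ranged from 0.8 to 1.54 TPM in controls and from 1.20 to 3.79 TPM in SAP. It was called higher (limma adjusted p = 0.0131) with overlapping groups, and the call was lost within the high-Xist libraries (limma adjusted p = 0.154).

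Among the members with a RefSeq window on GRCm38.p6, the 250 bases before the start, 2 held the STAT motif TTCNNNGAA, in capitals. They were Pros1 (chr16:62854057-62854306, plus strand) and F9 (chrX:59999214-59999463, plus strand). A2m, Serpina10, Kng1 and Proc were among those without a window. Pros1 was higher and F9 not past the threshold. In F9 the motif CTGGGAA, the interleukin-6 response element core, lies on the other strand inside the same match.
Pros1: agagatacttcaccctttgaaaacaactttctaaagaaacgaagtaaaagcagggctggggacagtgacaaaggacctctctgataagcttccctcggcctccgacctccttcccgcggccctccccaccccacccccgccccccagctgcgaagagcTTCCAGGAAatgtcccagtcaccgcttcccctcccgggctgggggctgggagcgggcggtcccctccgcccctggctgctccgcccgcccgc
F9: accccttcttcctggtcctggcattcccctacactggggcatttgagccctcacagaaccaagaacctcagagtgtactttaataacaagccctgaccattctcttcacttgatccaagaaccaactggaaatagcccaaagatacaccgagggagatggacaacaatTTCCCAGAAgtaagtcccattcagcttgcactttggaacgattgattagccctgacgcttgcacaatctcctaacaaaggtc

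The protein Z pair, which together inhibits activated factor X, was divided as well. Its serpin, Serpina10, had a lowest, median and highest value of 166, 178 and 202 TPM in controls and of 475, 523 and 629 TPM in SAP. The SAP mean was 3.02 times the control mean, the log2 difference was 1.58 ± 0.08 (SE; limma adjusted p = 1.76e-08), and leaving out any library gave 1.54 to 1.62. The cofactor Proz, by contrast, ranged from 149 to 171 TPM in controls and from 90.1 to 146 TPM in SAP. Its log2 difference of -0.32 (limma adjusted p = 0.0219) turned to 0.02 with quantile normalization, and its call was lost with the Xist split as a term and within the high-Xist libraries (limma adjusted p = 0.113 and 0.187). Tfpi, the inhibitor of the tissue factor complex, averaged 2.27 TPM in controls and 2.90 TPM in SAP and was not past the threshold (limma adjusted p = 0.101), although it was called higher with TMM-like scaling, with quantile normalization and without SAP 14 (limma adjusted p = 0.0240, 0.0400 and 0.0336).

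Summed over all genes of a role, procoagulant transcripts were at 1888 to 2030 TPM in controls and 1236 to 1612 TPM in SAP, and anticoagulant transcripts at 4313 to 4603 and 2351 to 3096 TPM. The procoagulant sum was 0.425 to 0.449 of the anticoagulant sum in controls and 0.472 to 0.526 in SAP. Serpinc1 alone made up 71.0 to 73.4% of the anticoagulant sum in controls and 54.0 to 60.2% in SAP. The procoagulant sum leaves out the fibrinogen chains, whose own sum averaged 6526 TPM in controls and 35208 TPM in SAP. No test was run on these sums.

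Among genes of fibrin breakdown, 4 of 7 were tested: 1 was higher, 1 lower and 2 not past the threshold. Plg had a lowest, median and highest value of 1103, 1189 and 1306 TPM in controls and of 943, 1131 and 1170 TPM in SAP, overlapping groups with a log2 difference of -0.12 ± 0.07 (SE; limma adjusted p = 0.149). Serpinf2, the plasmin inhibitor alpha2-antiplasmin, averaged 712 ± 45.2 and 724 ± 51.6 TPM (SD, n = 6), not past the threshold (limma adjusted p = 0.798), although it was called higher, by 0.19, with quantile normalization (adjusted p = 0.0240). Cpb2 encodes the thrombin-activatable fibrinolysis inhibitor, which trims the lysines that plasminogen binds on fibrin. Its lowest, median and highest values were 285, 318 and 335 TPM in controls and 615, 853 and 918 TPM in SAP. All 6 SAP libraries were above all controls, with SAP 12 lowest, and the log2 difference was 1.36 ± 0.09 (SE; limma adjusted p = 1.18e-07). Hrg, a glycoprotein that binds plasminogen and heparin, went from 795 ± 39.4 to 565 ± 69.2 TPM (SD, n = 6), a log2 difference of -0.50 (limma adjusted p = 2.80e-04).

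The activators of plasminogen were near the lower end of measurement. Plat (tissue-type activator) reached at most 0.350 TPM and Plau (urokinase) at most 0.700 TPM in any library, and neither passed the filter. Plaur, the urokinase receptor, was at 0.08 to 0.41 TPM in controls and 0.75 to 1.13 TPM in SAP, with no overlap. F13a1, the catalytic subunit of factor XIII, was at 0 to 0.1 TPM in controls and 0.180 to 0.590 TPM in SAP. Serpina5, the protein C inhibitor, was at 0 to 0.0800 TPM in controls and 0.430 to 1.81 TPM in SAP, highest in SAP 14. In a fit with no filter (25185 genes) these last 3 genes were called higher (limma adjusted p = 1.41e-04, 0.00504 and 0.00384), whereas Plat, Plau and Mug2 were not past the threshold (adjusted p = 0.461, 0.270 and 0.476). Plaur and F13a1 are also expressed by myeloid cells. The 6 monocyte markers summed to 10.2 to 15.9 TPM in controls and 37.1 to 63.3 TPM in SAP, and the 8 neutrophil markers to 4.90 to 19.8 and 35.2 to 108 TPM. In each of these lists 3 markers were tested and called higher, but Itgam and Retnlg passed the filter only through the SAP libraries, which fixed their direction, and Fcgr1 reached 1 TPM in 2 of 6 controls. Plac8 was the largest term of the monocyte sum, at a mean of 10.7 TPM in controls and 38.7 TPM in SAP. Ly6c2 (means 0.615 and 1.03 TPM), Ccr2 (0.173 and 0.282 TPM) and Chil3 overlapped between groups and were not tested. Chil3 was highest in SAP 10, at 10.5 TPM, with a SAP median of 0.41 TPM. The other neutrophil markers were not tested; Camp averaged 0.373 TPM in controls and 0.0883 TPM in SAP, Ltf 0.380 and 0.142 TPM, Mpo 0.272 and 0.285 TPM and Ngp 0.600 and 0.662 TPM. Of 8 Kupffer cell and macrophage markers 1 was higher (Cd68), 3 lower (Clec4f, Vsig4 and Timd4) and 4 not past the threshold, with sums of 173 to 270 TPM in controls and 122 to 287 TPM in SAP. The part of these cells in the Plaur and F13a1 values was not tested. The 9 platelet markers summed to 4.24 to 6.68 TPM in controls and 5.00 to 9.09 TPM in SAP, with 1 tested and higher (Pf4). Pf4 was the largest term, at a mean of 3.44 TPM in controls and 4.925 TPM in SAP. Itga2b, not tested, went the other way, from 1.34 to 0.772 TPM in the mean, with overlapping groups. Of the other untested markers, Gp1ba, Gp9 and Gp6 had lower means in SAP, and Ppbp, Gp1bb, Treml1 and Tubb1 higher ones.

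In the contact and kinin system both kininogen genes, the substrate, were higher and the protease that cuts it was lower: of 5 tested, 2 were higher, 1 lower and 2 not past the threshold. Kng1, the more abundant kininogen gene, had a lowest, median and highest value of 1118, 1162 and 1236 TPM in controls and of 1296, 1528 and 1753 TPM in SAP, separate groups with a log2 difference of 0.36 ± 0.07 (SE; limma adjusted p = 0.00109). Kng2 ranged from 229 to 266 TPM in controls and from 348 to 450 TPM in SAP, a log2 difference of 0.69 ± 0.07 (SE; limma adjusted p = 3.82e-06). Kng2 made up 16.9 to 18.7% of the summed kininogen level in controls and 20.1 to 21.2% in SAP. Klkb1, plasma prekallikrein, had a lowest, median and highest value of 39.1, 46.0 and 48.1 TPM in controls and of 7.42, 22.7 and 33.0 TPM in SAP. No SAP library reached the lowest control, SAP 14 was the lowest of all, and the log2 difference was -1.16 ± 0.26 (SE; limma adjusted p = 0.00242), or -0.90 without SAP 14. The other contact proteases were not past the threshold. F12, which starts the contact reaction, averaged 154 TPM in controls and 155 TPM in SAP, and was called higher, by 0.36, with quantile normalization (limma adjusted p = 1.30e-04). F11, which it activates, averaged 45.3 ± 8.25 and 45.4 ± 4.88 TPM (SD, n = 6).

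The 250 bases before the start, read from the RefSeq table for GRCm38.p6 and shown on the strand of the gene from 5′ to 3′, are given for F11 (chr8:45262032-45262281, minus strand) and Klkb1 (chr8:45294836-45295085, minus strand), neighbours whose levels went apart. Capitals mark motifs found on either strand: TGTTTAC, the FOXA motif, in both, and the letters TATAAA in Klkb1. The TATAAA match is on the other strand, 132 to 127 bases before the start, and is not taken here for a core promoter box. The Klkb1 window reaches into the first bases of that gene as GENCODE M21 places it, and its TGTTTAC match lies within those bases.
F11: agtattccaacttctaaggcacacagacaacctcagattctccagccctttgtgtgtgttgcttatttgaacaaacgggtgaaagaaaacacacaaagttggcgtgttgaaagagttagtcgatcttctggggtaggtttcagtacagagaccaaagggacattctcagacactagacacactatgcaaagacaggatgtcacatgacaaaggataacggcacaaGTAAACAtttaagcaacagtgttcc
Klkb1: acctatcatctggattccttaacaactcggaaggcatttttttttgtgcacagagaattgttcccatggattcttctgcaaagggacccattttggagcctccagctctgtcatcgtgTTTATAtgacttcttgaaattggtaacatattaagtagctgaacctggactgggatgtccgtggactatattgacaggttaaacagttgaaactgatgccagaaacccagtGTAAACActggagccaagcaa

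The macroglobulins, large plasma proteins that trap proteases of many kinds, were represented by 3 tested genes: Pzp was higher, Mug1 lower, and A2m was called higher after passing the filter only through the SAP libraries, which fixed its direction. Pzp, the most abundant of the 38 genes in SAP, had a lowest, median and highest value of 1819, 1934 and 2114 TPM in controls and of 3071, 3199 and 3482 TPM in SAP, a log2 difference of 0.72 ± 0.06 (SE; limma adjusted p = 1.60e-06). Mug1 had a lowest, median and highest value of 708, 1087 and 1257 TPM in controls and of 308, 435 and 673 TPM in SAP. These groups were separate too, but in the other direction with control 5 and SAP 12 nearest to each other. The log2 difference was -1.15 ± 0.18 (SE; limma adjusted p = 1.54e-04). Pzp was 1.68 to 2.57 times as abundant as Mug1 in controls and 4.57 to 10.7 times in SAP. A2m was at 0 to 0.0400 TPM in controls (median 0.0100) and at 1.24 to 11.1 TPM in SAP (median 3.58), highest in SAP 14. Its log2 difference of 2.22 ± 0.29 (SE; limma adjusted p = 4.67e-05) was 5.04 with a pseudocount of 0.1, so its size rests on that choice, and its p is no support for a direction that the filter fixed. Mug2 reached at most 1.81 TPM in any library.

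The same windows of Mug1 (chr6:121838291-121838540, plus strand) and Pzp (chr6:128526721-128526970, minus strand) are shown because the 2 genes went opposite ways while both hold GTTAAT, the HNF1 half-site, in capitals on either strand.
Mug1: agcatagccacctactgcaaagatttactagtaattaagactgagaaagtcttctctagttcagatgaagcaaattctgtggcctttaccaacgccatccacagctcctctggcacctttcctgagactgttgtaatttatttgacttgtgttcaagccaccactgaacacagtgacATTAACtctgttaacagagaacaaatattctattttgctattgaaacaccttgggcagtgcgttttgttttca
Pzp: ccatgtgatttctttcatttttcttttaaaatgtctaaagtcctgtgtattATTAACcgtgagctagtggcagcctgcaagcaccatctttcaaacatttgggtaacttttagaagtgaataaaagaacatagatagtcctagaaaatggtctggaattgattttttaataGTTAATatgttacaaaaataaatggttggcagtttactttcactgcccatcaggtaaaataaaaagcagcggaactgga

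The vitamin K cycle serves 7 of the genes (F2, F7, F9, F10, Proc, Pros1 and Proz), whose proteins carry the carboxylated glutamates. Of these 7, 5 were lower, 1 higher and 1 not past the threshold, against 25.0% lower and 19.5% higher over all tested genes. Among the 5, F10 and Proz were not called with quantile normalization. Vkorc1, which regenerates reduced vitamin K, had a lowest, median and highest value of 261, 271 and 291 TPM in controls and of 297, 317 and 352 TPM in SAP. The groups were separate with a small log2 difference of 0.23 ± 0.06 (SE; limma adjusted p = 0.00465). Ggcx, the carboxylase itself, averaged 36.9 ± 2.43 and 36.0 ± 5.71 TPM (SD, n = 6) and was not past the threshold (limma adjusted p = 0.708).

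In all, 6 pairs of genes were compared as ratios within each library, which scaling hardly moves, with two-sided exact permutation tests adjusted over the 6. The pairs were chosen with earlier results of these data known, so their p-values describe the separation and are not independent support. With 6 against 6 libraries p cannot fall below 0.00216, which the adjustment made 0.00325 here. Prothrombin stood at 0.364 to 0.395 of antithrombin in controls and at 0.499 to 0.641 in SAP (exact permutation, adjusted p = 0.00325). F9 stood at 0.160 to 0.185 of Proc in controls and at 0.219 to 0.272 in SAP (exact permutation, adjusted p = 0.00325). F10 was 1.82 to 2.33 times Serpina10 in controls and 0.404 to 0.684 times in SAP (exact permutation, adjusted p = 0.00325), so the order of the 2 genes turned in all 6 SAP libraries. Klkb1 stood at 0.0335 to 0.0418 of Kng1 in controls and at 0.00487 to 0.0237 in SAP (exact permutation, adjusted p = 0.00325). These 4 ratios had no overlap between groups. For F10 to Serpina10 and Klkb1 to Kng1 this was fixed in advance. Each gene of these pairs already had separate groups, in opposite directions.

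The last 2 ratios overlapped. Plg was 1.61 to 1.75 times Serpinf2 in controls and 1.42 to 1.64 times in SAP, a log2 difference of -0.15 (exact permutation, adjusted p = 0.00779). Ggcx stood at 0.115 to 0.151 of Vkorc1 in controls and at 0.0864 to 0.135 in SAP, a log2 difference of -0.28 (exact permutation, adjusted p = 0.0303). That last call was lost when any of control 3, 5, 7, 8 or SAP 10, 13, 14 was left out, with differences between -0.27 and -0.20.

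**Figure D3:**
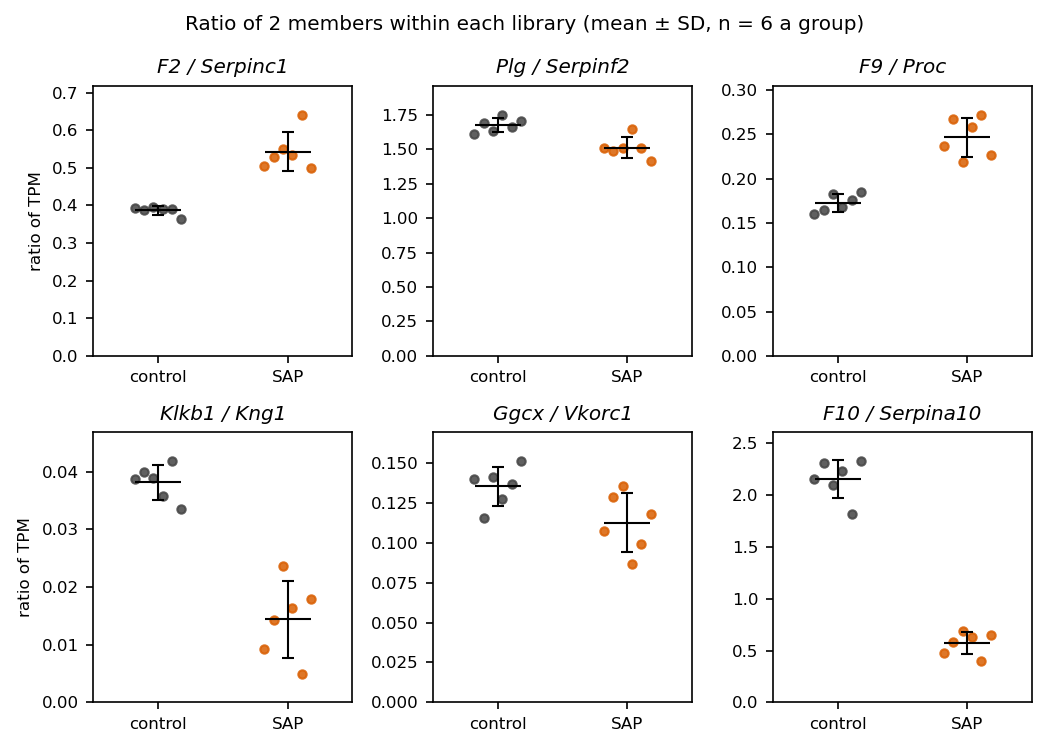
Ratio of TPM of 2 genes in each library (points), with mean and SD of 6 libraries a group; every axis starts at 0. The groups separate for 4 ratios, F2 to Serpinc1 and F9 to Proc upward and Klkb1 to Kng1 and F10 to Serpina10 downward, while the Plg to Serpinf2 and Ggcx to Vkorc1 values overlap.

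Several of the genes lie next to one another in GENCODE M21 on GRCm38, with no other protein-coding gene between them. F7, F10 and Proz follow each other on chromosome 8 (13026034 to 13076026) with gaps of 1498 and 4237 bases, and all 3 were lower in SAP, although F10 and Proz were not called with quantile normalization. F11 and Klkb1 are 4657 bases apart on the same chromosome (45241174 to 45294859). Klkb1 stood at 0.839 to 1.14 of F11 in controls and at 0.155 to 0.753 in SAP. On chromosome 16 Hrg, Kng2 and Kng1 follow each other (22951072 to 23082078). There Hrg was lower and both kininogen genes higher, and Hrg was 2.74 to 3.55 times Kng2 in controls and 1.08 to 1.70 times in SAP. These last 2 ratios were also chosen with the values known, and were not tested.

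**Figure D4:**
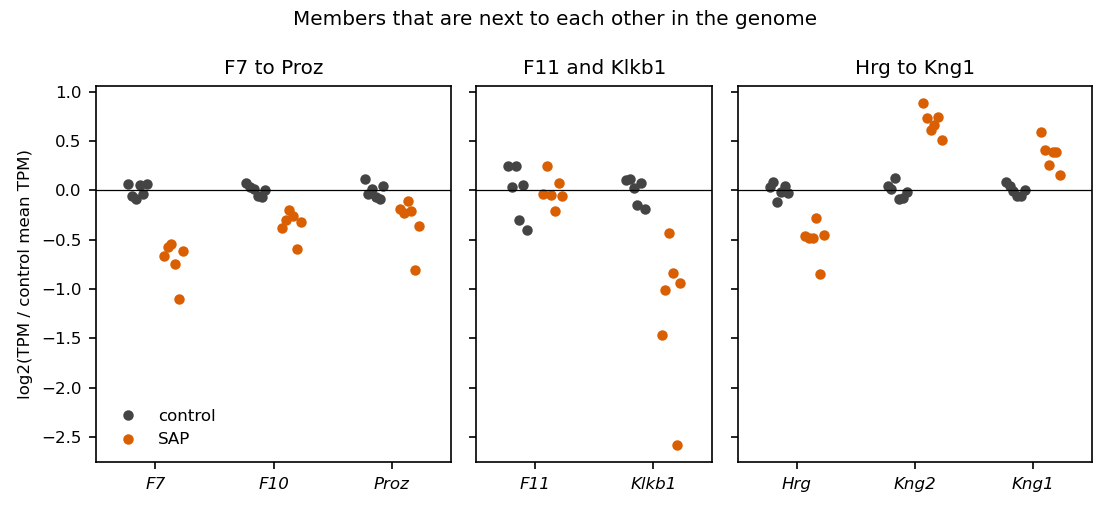
Level in each library relative to the control mean, on a log2 scale, for members that neighbour each other in the genome (6 control and 6 SAP libraries). F7, F10 and Proz lie below 0 in SAP, F11 stays around 0 beside a low Klkb1, and Hrg lies below 0 beside Kng2 and Kng1 above it.

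Copies that share sequence make some levels uncertain, since the sources do not say how shared reads were assigned. Of the 50-base stretches of the longest Kng2 coding transcript in GENCODE M21, 18.2% also occur in a Kng1 transcript. For Mug1 32.9% occur in another gene, Mug2 being the closest (20.9%), and for Mug2 50.5% do, with Mug-ps1 closest. Mug-ps1, called lower, was listed at 5.06 to 25.9 TPM in controls and 1.53 to 15.2 TPM in SAP. Klkb1 shares 42.7% with the overlapping gene model Gm45753, listed at no more than 0.730 TPM in any library. Vkorc1 shares 50.5% with Gm21974, listed at no more than 1.73 TPM. For Pzp, A2m, Cpb2, F2, Serpinc1, Serpind1, Proc and Plg the share was 0%.

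The RefSeq table held 29 of the 38 genes, in 31 windows, and 5 short motifs were searched on both strands of each. A2m, Serpina10, Kng1, Proc, Plg, Thbd, Plau, Plat and Vwf had no window and were not searched. Matches lay in genes of either direction. TGTTTAC occurred in 3 of the 31 windows (9.68%) and in 3.17% of all 32851 windows of the same length. It lay 25 to 19 bases before the start of F11, whose level was not past the threshold, and 21 to 15 bases before the RefSeq start of Klkb1, which was lower. By the GENCODE M21 position the Klkb1 match lies inside the gene. GTTAAT occurred in 5 of 31 windows (16.1%, and 6.43% of all), those of F13b, Proz, Mug1, Mug2 and Pzp. F13b, Proz and Mug1 were lower, Mug2 was not tested, and Pzp was higher and held it on both strands. The Mug1 and Mug2 windows share long stretches of sequence around the match, so their matches are not separate occurrences. TTCNNNGAA occurred in 2 of 31 (6.45%, and 7.02% of all), CTGGGAA in 2 of 31 (6.45%, and 9.10% of all) and TATAAA in 2 of 31 (6.45%, and 12.4% of all). A match describes letters only.

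Other genes of the pathway, a list of 41, gives the surroundings of the 38. Of 30 tested, 14 were higher, 9 lower and 7 not past the threshold, with a median log2 difference of 0.14. The shares over all tested genes were 19.5% higher and 25.0% lower. The 3 with the smallest adjusted p among those higher were Fgl1, Fgb and Gas6. Fgl1, a fibrinogen-like hepatokine, went from 724 ± 136 to 3691 ± 309 TPM (SD, n = 6) and Fgb, the fibrinogen beta chain, from 2203 ± 268 to 12448 ± 2928 TPM (SD, n = 6). The 3 fibrinogen chains summed to 5211 to 7425 TPM in controls and 24504 to 47172 TPM in SAP. Gas6, a vitamin K-dependent relative of protein S, went from 24.9 ± 3.30 to 101 ± 18.3 TPM (SD, n = 6), a log2 difference of 1.97 ± 0.12 (SE; limma adjusted p = 5.28e-08). The 3 lower genes with the smallest adjusted p were Nqo1 (a quinone reductase, -1.17), Hgfac (the protease that activates hepatocyte growth factor, -0.72) and Habp2 (a hyaluronan-binding protease, -0.59), all 3 with separate groups. Lman1, a cargo receptor for factors V and VIII, was called higher and went from 85.4 to 113 TPM in the mean. C4bp was called higher too, from 246 to 369 TPM in the mean. Lman1, C4bp, Ace, Mme, Cpn1 and Cpn2 were chosen after their values were seen. Of 41 listed, 11 were not tested, among them Ace, which inactivates bradykinin. Ace was at 0.11 to 0.63 TPM in controls and 0.49 to 0.9 TPM in SAP. Mme, another kinin-degrading peptidase, was lower, from 2.43 to 3.68 TPM in controls to 0.21 to 1.59 TPM in SAP. Cpn1 and Cpn2, listed for kinin breakdown as well, were more abundant and not past the threshold. Cpn1 averaged 238 TPM in controls and 257 TPM in SAP, and Cpn2 averaged 101 and 99.7 TPM.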

How the data were processed

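Liver RNA of 6 control and 6 SAP samples was sequenced. The authors deposited 1 table, taken here to be in TPM: no header or label names the unit, but the values have 2 decimals and sum to between 993412 and 995793 in each library. The submitters' processing notes name edgeR, without role or version. For the aligner, build and annotation: not given in the sources used here. All 12 sample columns were used and 0 left out. A symbol repeated over several rows (120 rows) stayed with the row of highest median; none of the 38 genes was repeated. Depth per library is unknown, so no counting interval is given.

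A limma-trend model (limma 3.58.1, R 4.3.3) was fitted to log2(TPM + 1) of 11344 genes that reached 1 TPM in 6 or more libraries, two-sided, with Benjamini-Hochberg adjustment over all genes at 0.05 and the group as the only term. The pipeline was tested on simulated data. Alternatives were quantile normalization, TMM-like scaling (trimming 30% of ratios and 5% of levels), dropping the filter, a filter on the mean (5 TPM), no trend, a robust step, a pseudocount of 0.1, the library split by Xist at 30 TPM as a term or its high side alone, and leaving out libraries. Ratios were compared with exact permutation tests. Every gene of the list is accounted for; lowest, median and highest values are given for those called with an absolute log2 difference of at least 1 and for the most abundant of each role, and the 3 smallest adjusted p in each direction name the other pathway genes. The genes, lists, roles and ratios were chosen with earlier results of these data known.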

Additional observations from a re-analysis of the deposited data

Results flagged for a closer look

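A single library lay far from the other 5 of its group (its gap to the nearest of them, over the group's range, passed Dixon's critical value) in 7 of 64 gene and group combinations of the 32 tested genes; chance flags about 1 in 20. In SAP 14, Serpinc1 was at 1270 TPM, where the other 5 SAP libraries held 1720 to 1840 TPM, Serpinf2 at 625 TPM against 712 to 762 TPM, and A2m at 11.1 TPM against 1.24 to 4.52 TPM. In SAP 12, Cpb2 was at 615 TPM against 812 to 918 TPM. Among controls, F3 was at 3.27 TPM in control 7 against 1.68 to 2.17 TPM, Vwf at 4.16 TPM in control 8 against 2.82 to 3.30 TPM, and A2m at 0.0400 TPM in control 3 against 0 to 0.0100 TPM.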

How the results depend on the processing

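Of the 23 genes called higher or lower, 17 kept direction and call under every alternative in which they were tested, and 22 did when any library was left out, F2r being the exception. Leaving out any library gave 9 to 11 higher and 13 to 14 lower genes; TMM-like scaling gave 11 and 13, the fit without SAP 14 and control 5 gave 11 and 13, and the Xist split as a term gave 10 and 10. Over all tested genes, 1830 were lower within the high-Xist libraries against 2832, with fewer samples, and 5 other pathway genes were lower with quantile normalization against 9. The Ggcx to Vkorc1 ratio differed by -0.33 to -0.20 with any library left out, and by -0.231 (exact permutation, adjusted p = 0.103) without SAP 14 and control 5. Signs turned for genes with small differences. With quantile normalization Proz was 0.0174, F9 0.0659 and Ggcx 0.110; with TMM-like scaling Ggcx was 0.00661 and Vwf 0.0429. With the Xist split as a term F11 was -0.0611, Vwf 0.00554 and Ggcx 0.00176, and within the high-Xist libraries Vwf was 0.0491 and Ggcx 0.0607. Without SAP 14 and control 5 Vwf was 0.0576 and Ggcx 0.00276. With any library left out F8 ranged from -0.0175 to 0.13, F11 from -0.0586 to 0.0682, F12 from -0.0202 to 0.0519, Serpinf2 from -0.00282 to 0.0657, Vwf from -0.0571 to 0.0630 and Ggcx from -0.11 to 0.00295. The causes were not tested. No paired analysis was possible because the replicate numbers of the 2 groups do not overlap (3 to 8 and 10 to 15). TPM holds no depth, so differences of genes near or under 1 TPM (Plat, Plau, Plaur, F13a1, Serpina5, Mug2, A2m in controls) have no counting error.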
